A study of Mus musculus with 124 samples.

Results

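The messenger RNAs of the cytosolic ribosome were followed in oocytes, embryos and offspring of female mice injected with human chorionic gonadotropin, abbreviated hCG, a hormone that triggers ovulation, and in those of females without the injection (Ctrl). Members were the mouse gene symbols that consist of Rpl or Rps and a number, with an optional a or x, together with Rplp0, Rplp1, Rplp2 and Rpsa. Symbols ending in -ps, which mark processed copies, were left out. The rule found 76 genes, 46 of the large and 30 of the small subunit. The blastocyst and dorsal dentate gyrus (dDG) tables held all 76, among 25239 and 24409 symbols. The oocyte table held 75 among 27015 symbols, and Rpl24 was not analysed there.

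hCG females were in natural estrus and received 7.5 IU into the peritoneum, with no other hormone. For the oocytes, Ctrl females in estrus were kept with a vasectomised male. How the mothers of the blastocysts and offspring were mated is not described here. Metaphase II oocytes were taken 14 h after hCG, or from plugged Ctrl females the next morning, and stripped of cumulus cells, so mating and hours since ovulation were not matched. Blastocysts came from the uterus at embryonic day 3.5, and dDG, the dorsal part of a hippocampal region, from offspring 8 weeks old. RNA was read in 6 hCG and 6 Ctrl oocyte libraries, 28 and 28 blastocyst libraries, and 6 and 6 dDG libraries, 80 of the 124 samples of the series; the other 44 are bisulfite libraries and were not used here. Strain and the number of oocytes per library are not given in the sources used here.

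A ribosome has a small subunit, which reads the messenger RNA, and a large subunit, which joins amino acids, and each is built from ribosomal RNA and one copy of nearly every ribosomal protein. The messenger RNAs of these proteins typically begin with a C and a stretch of pyrimidines, the 5' terminal oligopyrimidine (TOP) motif, through which the kinase complex mTORC1 and the RNA-binding protein Larp1 set how strongly they are translated. The growing oocyte stores ribosomes and messenger RNAs, and the full-grown oocyte makes almost no new RNA. The embryo builds new ribosomes once its own genome is active.

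The stretch around the annotated transcription start, searched for a TOP-like run, is shown for 4 of the 7 members that passed a test below. Each line gives 40 bases before the start and 20 from it on, 5' to 3' on the gene's strand, from RefSeq on GRCm38.p6, with a C followed by C or T for 7 or more bases in capitals.
Rps26, chr10:128626487-128626546, minus strand: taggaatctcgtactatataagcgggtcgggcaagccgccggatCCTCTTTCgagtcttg
Rps25, chr9:44407674-44407733, plus strand: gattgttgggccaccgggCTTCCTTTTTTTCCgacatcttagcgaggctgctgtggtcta
Rpl7a, chr2:26910767-26910826, plus strand: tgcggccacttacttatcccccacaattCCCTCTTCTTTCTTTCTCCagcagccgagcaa
Rps13, chr7:116334171-116334230, minus strand: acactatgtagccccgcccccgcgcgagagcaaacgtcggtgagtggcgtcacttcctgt
The run is 8 bases long in Rps26, 14 in Rps25 and 19 in Rpl7a, and Rps13 has none in this window. Counted from the annotated start, its first base lies at 4 in Rps26, -22 in Rps25 and -12 in Rpl7a. The Rps25 run thus ends before the annotated start. The promoters of Rps29, Rpl32 and Rps20 were not used.

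Such a run lay within 30 bases of the start, on the gene's strand, in 57.6% of 66 promoters of 56 member genes, against 26.5% of all 32851 promoters of the same length in the supplied RefSeq table. Large-subunit (57.5%) and small-subunit promoters (57.7%) held it about equally often. CCGGAAG, letters bound by ETS-family factors, was present on either strand, anywhere from 250 bases before the start to 50 from it on, in 36.4% of member promoters and 8.86% of all. TATAAA, searched likewise, was present in 9.09% and 13.6%. None of these letter patterns contains another, and a match describes the window and is not evidence of use. The 76 genes lie on 19 chromosomes, with 14 on chromosome 7 and 4 on the X chromosome.

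Levels below are in CPM, a gene's reads scaled to a fixed library total. They are not divided by transcript length, and the 3 tables were made and normalised separately, so levels in different materials stand side by side without a test. Oocyte libraries held 2379861 to 6924189 counts, blastocyst libraries an estimated 3043231 to 10859378 reads, and dDG libraries 14991584 to 17859654 expected counts. In 5 of the 28 hCG blastocyst libraries, and in no Ctrl blastocyst library, both Xist and Y-linked transcripts exceeded 50 CPM. Leaving them out thus removed hCG libraries only, and calls that were lost without them are named beside the results. Whether replicates came from separate animals is not stated, so p-values measure the spread between samples, which may be technical. In bulk RNA, fewer cells of a type and less RNA per cell cannot be told apart. Members were counted as higher or lower in hCG at an adjusted p under 0.05 over all genes tested in the table, and log2 fold changes are hCG over Ctrl with their standard error.

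All members together took a small share of the oocyte reads, 0.209% ± 0.025 in hCG and 0.243% ± 0.025 in Ctrl oocytes (SD, n = 6 each). In blastocysts they took 6.76% ± 0.69 in hCG and 6.84% ± 1.18 in Ctrl (SD, n = 28 each). In dDG they took 1.27% ± 0.10 in hCG and 1.26% ± 0.04 in Ctrl (SD, n = 6 each). These summed shares did not overlap between the 3 tables, lowest in oocytes and highest in blastocysts. Single members could differ from that order, and Rps15a averaged 381 CPM in oocytes, 261 CPM in blastocysts and 139 CPM in dDG.

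**Figure D1:**
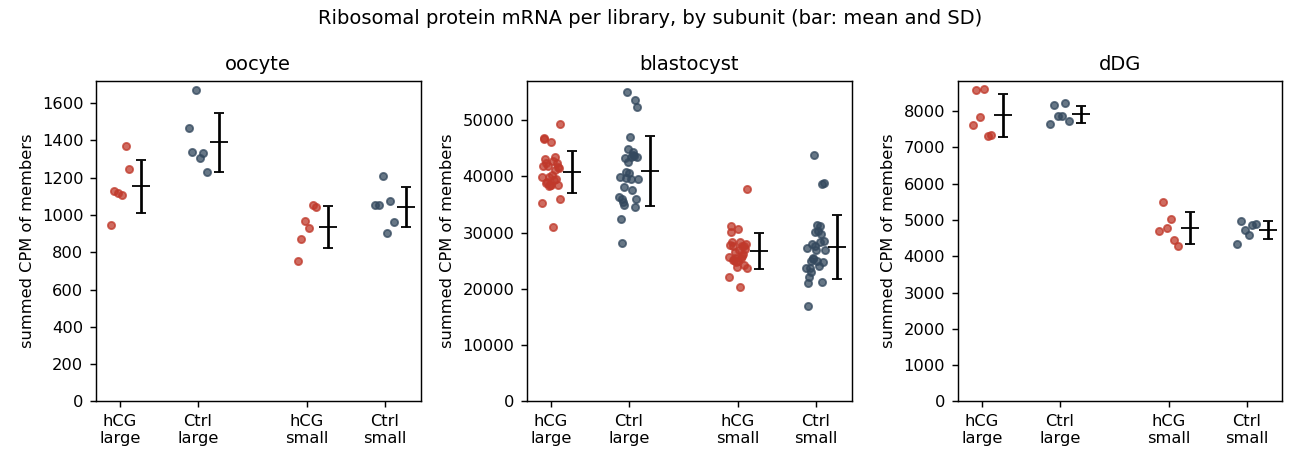
Summed CPM of the large-subunit and small-subunit members in every library of the 3 materials (points; hCG red, Ctrl dark; the bar beside each group is the mean with its SD, and the 3 vertical axes differ). In the large-subunit sum 4 of 6 hCG libraries in oocytes and 3 of 6 in dDG lie below every Ctrl library, and the groups overlap in all 3 materials.

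The oocyte level was also uneven among the members. Single members averaged between 0.133 CPM (Rps10) and 381 CPM (Rps15a), with a median of 10.6 CPM, and 8 lay under 1 CPM. The first 4 genes by reads made up 44.9% of the members' sum. In blastocysts the range was narrower, from 176 CPM (Rps12) to 2570 CPM (Rpl4), and the first 4 genes made up 13.3% of the sum. In dDG the range ran from 1.76 CPM (Rps27) to 666 CPM (Rpl4), and the first 4 made up 16.4%. Of the blastocyst members, 20 were among the 100 genes with the most reads, against 0 in each of the other tables.

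**Figure D2:**
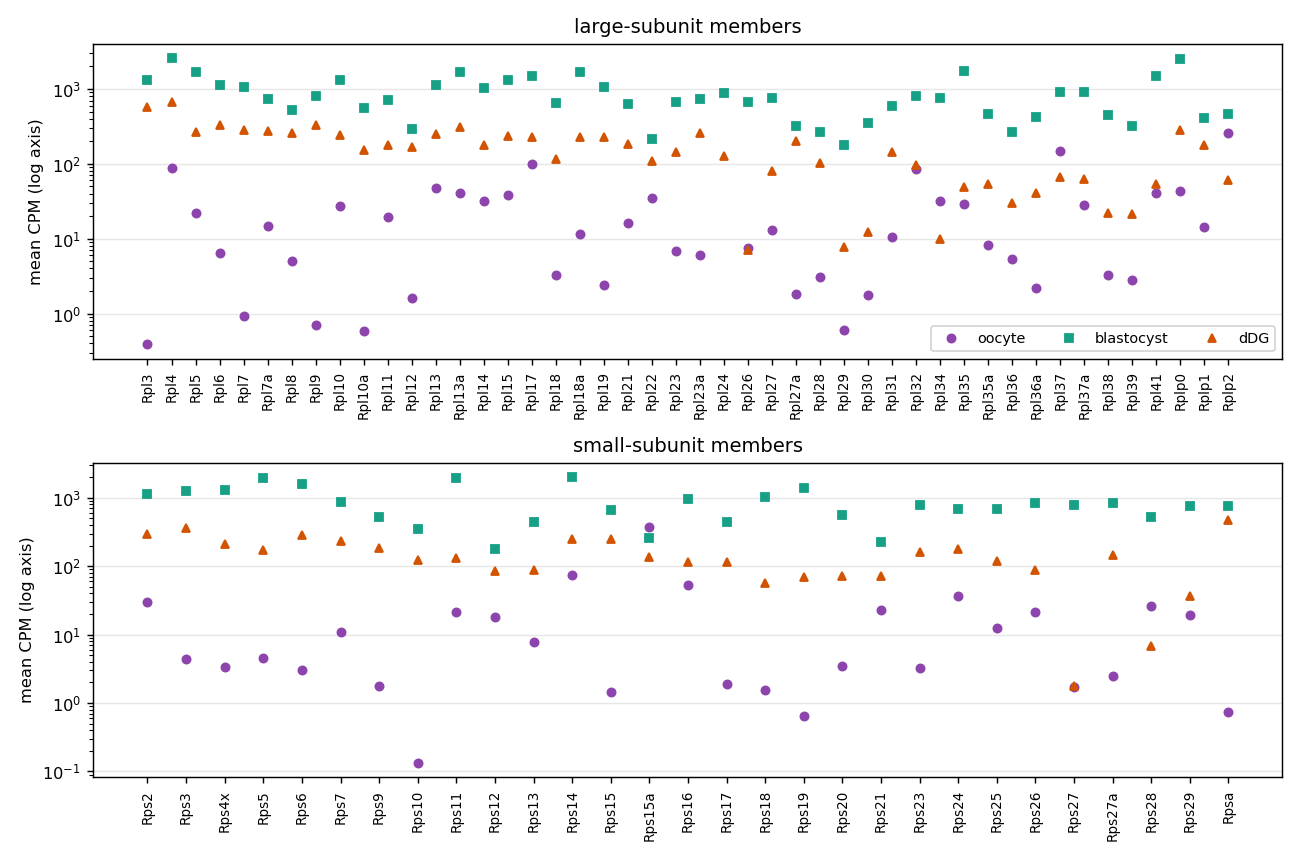
Mean CPM over all libraries of each member shown (log axis) in oocytes, blastocysts and dDG, for the large subunit above and the small subunit below. Blastocyst values form a band between 176 and 2570 CPM, whereas oocyte values spread from 0.133 to 381 CPM.

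Counts of these genes depend on how reads that fit several near-identical copies were treated, which is not given in the sources used here. The oocyte table listed 140 -ps symbols of ribosomal protein names, of which 82 had reads, and together they summed to only 13.7 to 25.8 CPM per library. In that table the 22 members without a -ps symbol had a median level of 16.8 CPM and the 53 members with one or more had 8.20 CPM. The blastocyst table listed 9 such symbols, summing to 661 to 1404 CPM, and the dDG table listed 7. Most of the blastocyst sum was the 1 listed copy of Rps18, which averaged 852 CPM beside 1046 CPM for Rps18 itself. All levels of members are therefore uncertain where copies share reads. The low dDG value of Rps27, a zinc-binding protein of the small subunit, rests on the non-coding RefSeq entry of that name: its coding entry was listed at 0 in all 12 libraries.

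The first comparison asks whether oocytes ovulated after hCG give different read levels for these messenger RNAs. The oocyte libraries were primed at the poly(A) tail, so fewer molecules and shorter tails cannot be told apart. In hCG oocytes 4 members fell and 0 rose: the small-subunit genes Rps26, Rps29 and Rps25 and the large-subunit gene Rpl32 (edgeR quasi-likelihood test, Benjamini-Hochberg adjustment). Of the 75 members 59 had enough counts to be tested, and over all 9564 genes tested 2.67% were called lower and 1.33% higher. The remaining 16 members, each averaging at most 1.91 CPM, were not tested. Since a gene also passes the filter through 1 group in which it is high, the 59 do not stand for all members.

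Rps26 encodes a protein at the exit of the messenger RNA channel and is mutated in some human families with Diamond-Blackfan anaemia. It had 8.33, 20.3, 9.93, 11.3, 11.04 and 18.2 CPM in the hCG oocyte libraries, against 30.1, 28.2, 42.2, 23.2, 29.9 and 24.4 CPM in the Ctrl libraries. Every hCG library lay below every Ctrl library, and the log2 fold change was -1.19 ± 0.24 (edgeR, adjusted p = 0.00695). The counts behind these levels were 42 to 92 in hCG and 67 to 292 in Ctrl libraries.

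Rps29 encodes a small zinc-binding protein of the head of the small subunit. It had 13.3, 12.6, 6.62, 11.5, 17.2 and 14.6 CPM in hCG libraries, against 29.2, 18.5, 34.7, 22.5, 30.7 and 22.7 CPM in Ctrl libraries. The groups did not overlap, and the log2 fold change was -1.09 ± 0.23 (edgeR, adjusted p = 0.00985).

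Rps25, a small-subunit protein that several viral internal ribosome entry sites need, had 6.74, 9.04, 7.24, 9.58, 10.1 and 6.88 CPM in hCG libraries, against 23.4, 20.2, 16.3, 17.5, 13.7 and 9.93 CPM in Ctrl libraries. The hCG libraries were tightly grouped, and the lowest Ctrl library, replicate 6, fell inside their range. The log2 fold change was -1.02 ± 0.24 (edgeR, adjusted p = 0.0176).

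Rpl32, the only large-subunit member called, had 36.1, 53.8, 50.1, 54.9, 73.1 and 96.3 CPM in hCG libraries, against 105, 103, 136, 92.0, 131 and 87.3 CPM in Ctrl libraries. One hCG library, replicate 6, reached into the Ctrl range, and all 6 lay below the Ctrl median. The log2 fold change was -0.87 ± 0.20 (edgeR, adjusted p = 0.0147).

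**Figure D3:**
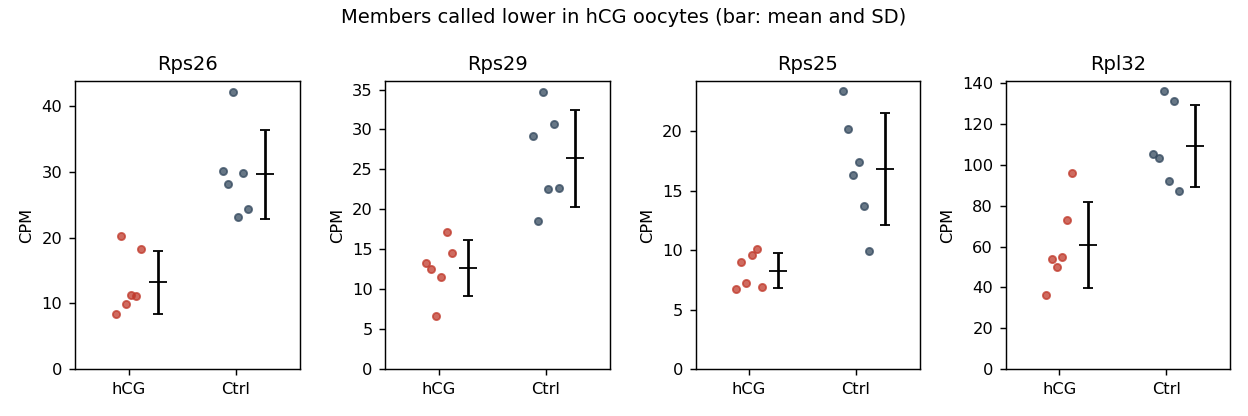
CPM of Rps26, Rps29, Rps25 and Rpl32 in the 6 hCG (red, left) and 6 Ctrl (dark, right) oocyte libraries; each point is a library and the bar is the mean with its SD. For Rps26 and Rps29 all hCG points lie below all Ctrl points.

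Most tested members leaned toward lower values in hCG oocytes without passing the test. Of the 59, 47 had a negative log2 fold change, with a median of -0.50 over 37 large-subunit and -0.44 over 22 small-subunit members, against 0.01 over all genes tested. At an unadjusted p under 0.05 there were 19 members lower and 0 higher, while over all genes 10.1% were lower and 8.76% higher. Groups did not overlap for 4 members, all with hCG below Ctrl (Rpl14, Rpl35a, Rps26 and Rps29); over all genes 1.9% did so in that direction and 1.13% in the other. The medians are descriptions and were given no test.

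Members just short of the threshold, named after their values were seen, were Rpl35a (-0.92 ± 0.26), Rpl5 (-0.85 ± 0.24), Rpl7a (-1.52 ± 0.43), Rps14 (-0.58 ± 0.17) and Rpl14 (-0.66 ± 0.20). Their adjusted p-values from edgeR were 0.0502, 0.0514, 0.0549, 0.0568 and 0.0648, and for each all 6 hCG libraries lay below the Ctrl median. Rpl5 and Rpl11 carry the 5S ribosomal RNA and can bind the p53 regulator Mdm2. Rpl11 had 18.1 ± 5.10 CPM in hCG and 20.95 ± 5.94 CPM in Ctrl oocytes (SD, n = 6 each), a log2 fold change of -0.23 ± 0.24 that did not pass.

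Members with many reads did not all share the lean. Rps15a, a small-subunit protein, had 412 ± 67.5 CPM in hCG and 350 ± 37.5 CPM in Ctrl oocytes (0.22 ± 0.13, edgeR adjusted p = 0.378). Rplp0, the base of the stalk to which translation factors bind, had 44.9 ± 11.3 and 41.1 ± 14.2 CPM in hCG and Ctrl (0.12 ± 0.24). The stalk proteins carried on it differed from Ctrl by -0.75 ± 0.30 (Rplp1) and -0.23 ± 0.14 (Rplp2), with neither past the threshold.

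Among members named for their role, Rps6, the small-subunit substrate of S6 kinase, had 3.197 ± 1.52 CPM in hCG and 2.89 ± 1.31 CPM in Ctrl oocytes. The X-linked members Rpl10, Rpl36a, Rpl39 and Rps4x had log2 fold changes of -0.06, -0.72, -1.25 and 0.32, none past the threshold. The tested members with the fewest reads, Rpl36a and Rpl19, averaged 2.22 and 2.38 CPM, where single reads move the values. Rpsa, a small-subunit protein also known as the laminin receptor, was not tested, with 0.818 ± 0.614 CPM in hCG and 0.643 ± 0.427 CPM in Ctrl.

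The large-subunit members summed to 948 to 1368 CPM in hCG oocytes and 1229 to 1672 CPM in Ctrl oocytes, and the small-subunit members to 755 to 1054 CPM in hCG and 901 to 1208 CPM in Ctrl. The ratio of small to large sums was 0.814 ± 0.039 in hCG and 0.752 ± 0.048 in Ctrl (SD, n = 6 each), and all 6 hCG libraries lay above the Ctrl median ratio. Markers of the oocyte itself also leaned lower in hCG, with overlapping ranges: their summed level was 5360 to 7605 CPM in hCG and 6713 to 10410 CPM in Ctrl. Of the 7 markers 2 were called lower, beside 2.67% over all genes, and their part in the result was not tested. Of 8 cumulus and granulosa markers Foxl2, Fshr, Ptx3 and Amhr2 were at 0 in all oocyte libraries, and the sum of the list was 15.6 to 24.3 CPM in hCG and 13.7 to 22.3 CPM in Ctrl.

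The 4 calls remained in each of the 17 other fits of the oocyte table. DESeq2 called 0 higher and 9 lower, adding Rpl14, Rpl35a, Rpl5, Rpl7a and Rps14. Leaving out Ctrl replicate 4 gave 9 and leaving out hCG replicate 3 gave 7.

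**Figure D4:**
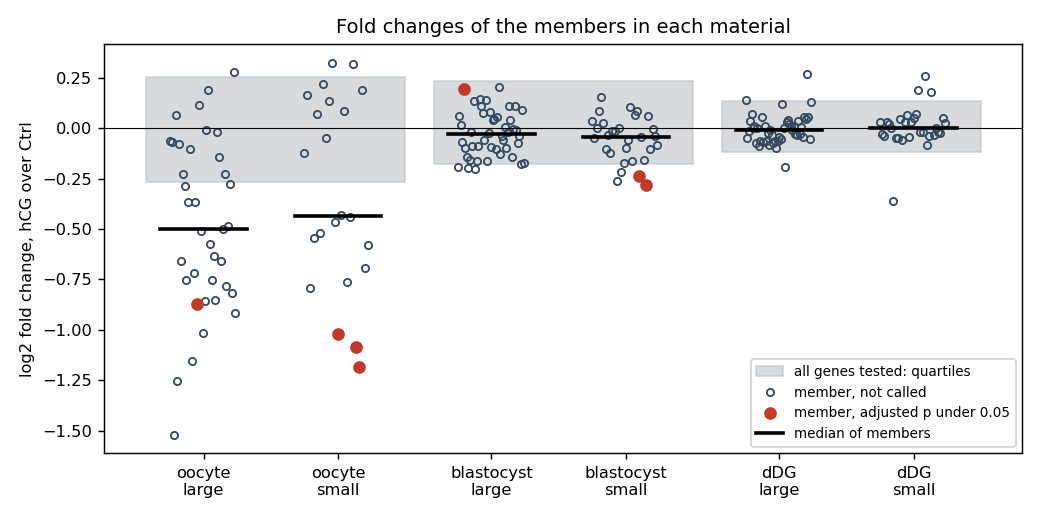
Log2 fold change, hCG over Ctrl, of every tested member (open circles; filled red where the adjusted p is under 0.05), by material and subunit; black lines are medians of members and grey boxes span the quartiles of all genes tested. Oocyte medians lie at -0.50 and -0.44, below the grey box, and those of blastocysts and dDG lie within 0.05 of 0.

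The second comparison asks whether blastocysts after hCG differ. All 76 members were tested, and Rps20 and Rps13 fell and Rpl7a rose (limma on log2 of CPM plus 1, Benjamini-Hochberg adjustment). Against these 2 lower and 1 higher of 76 stand 7.6% lower and 8.68% higher over all 10848 genes tested. At an unadjusted p under 0.05, 6 members were lower and 4 higher, beside 14.4% and 16.4% of all genes. Medians were -0.03 for the large and -0.04 for the small subunit, against 0.02 for all genes. With a covariate for genes detected per library, the medians turned positive, 0.11 for the large and 0.14 for the small subunit, against -0.02 for all genes.

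Rps20 encodes a protein of the head of the small subunit. The lowest, median and highest of the 28 hCG libraries were 365, 498 and 631 CPM, against 334, 583 and 1189 CPM in the 28 Ctrl libraries. The groups overlapped, 24 of 28 hCG libraries lay below the Ctrl median, and the log2 fold change was -0.28 ± 0.09 (limma, adjusted p = 0.0262).

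Rps13, a small-subunit protein that contacts the large subunit, had 289, 400 and 553 CPM (lowest, median, highest) in hCG libraries, against 328, 458 and 744 CPM in Ctrl libraries. Both ranges overlapped widely, and 23 of 28 hCG libraries lay below the Ctrl median (-0.24 ± 0.08, limma adjusted p = 0.0440). Rpl7a, a large-subunit protein, had 616, 785 and 947 CPM in hCG libraries, against 443, 671 and 950 CPM in Ctrl libraries. Only 4 of 28 hCG libraries lay below the Ctrl median (0.20 ± 0.07, limma adjusted p = 0.0482).

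These calls lay near the threshold. Rpl7a was lost with edgeR on estimated reads (adjusted p = 0.0639) and with a pseudocount of 5 CPM (limma adjusted p = 0.05), and Rps13 without a filter on low values (limma adjusted p = 0.055). Rps20 and Rps13 were lost without those 5 hCG libraries with Xist and Y-linked transcripts (limma adjusted p = 0.0571 and 0.0697) and with a covariate for genes detected per library (0.506 and 0.575), a number that ran from 12712 to 14079 in hCG and 10382 to 13836 in Ctrl libraries; beyond this fit its part in the result was not tested. On the deposited values without scaling, where the median of all genes was 0.49, the signs of Rps20 and Rps13 turned positive (0.15 and 0.20), below that median.

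**Figure D5:**
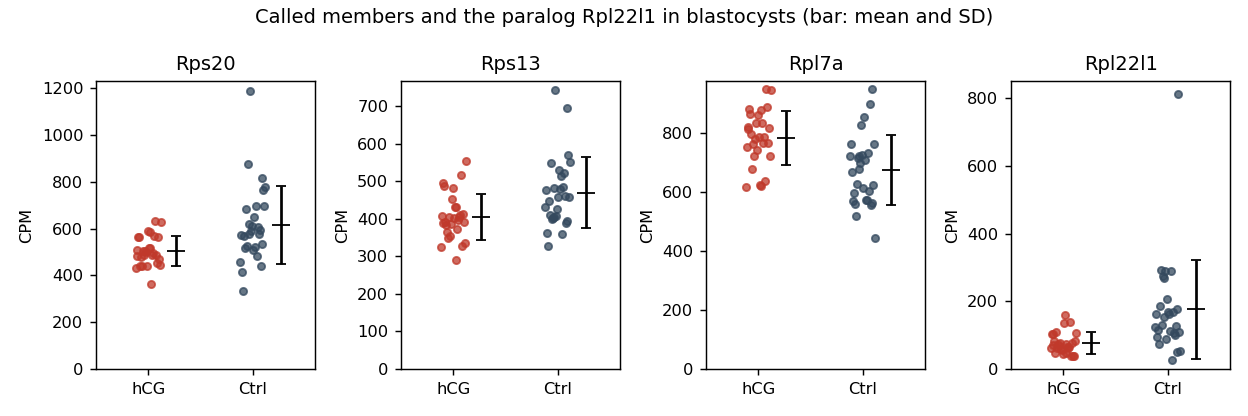
CPM in the 28 hCG (red, left) and 28 Ctrl (dark, right) blastocyst libraries for Rps20, Rps13, Rpl7a and the paralog Rpl22l1; points are libraries and bars the mean with its SD. The groups overlap for all 4 genes, and 13 Ctrl libraries exceed the highest hCG library for Rpl22l1.

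The next member by p was Rpl4, whose protein lines the exit tunnel of the nascent chain, with 2723 ± 335 CPM in hCG and 2417 ± 360 CPM in Ctrl blastocysts (SD, n = 28 each; 0.14 ± 0.06, limma adjusted p = 0.0830). Other abundant members did not pass, such as Rplp0 with 2536 ± 288 CPM in hCG and 2416 ± 379 CPM in Ctrl, and Rps14 with 2002 ± 435 CPM in hCG and 2048 ± 551 CPM in Ctrl. At the low end of reads, Rps12 and Rpl29 had log2 fold changes of -0.17 and -0.02. The stalk genes Rplp1 and Rplp2, the 5S particle genes Rpl5 and Rpl11, and Rps6 and Rpsa ranged from -0.16 (Rpsa) to 0.11 (Rplp2), and the X-linked members from -0.26 (Rps4x) to -0.10 (Rpl36a), none past the threshold.

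Over the 76 members the median coefficient of variation between libraries was 15.6% in hCG and 27.1% in Ctrl blastocysts. It was 30.8% in hCG and 28.2% in Ctrl oocytes over the 59 tested members, and 10.4% in hCG and 5.18% in Ctrl dDG over 76. The difference in spread was not tested. Ctrl blastocyst replicates 12 and 26 had the fewest genes detected, 10382 and 10720, with members at 9.88% and 9.12% of their reads. No fit left these libraries out, and their part in the spread was not tested. Summed large-subunit levels ran from 30980 to 49400 CPM in hCG and 28090 to 55050 CPM in Ctrl, and small-subunit levels from 20350 to 37840 CPM in hCG and 17030 to 43780 CPM in Ctrl. The ratio of small to large sums was 0.653 ± 0.026 in hCG and 0.666 ± 0.040 in Ctrl (SD, n = 28 each). Trophectoderm markers summed to 2203 to 8468 CPM in hCG and 1680 to 11870 CPM in Ctrl with 1 of 7 called lower, and inner cell mass markers to 151 to 759 CPM in hCG and 112 to 652 CPM in Ctrl with 1 of 5 called higher. Over all genes 8.68% were called higher and 7.6% lower, and the part of these markers in the member results was not tested.

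The third comparison asks whether dDG of the offspring differs. In dDG 0 of 76 members passed the test in either direction (edgeR), while 4.67% of 13874 genes tested were called higher and 3.19% lower. At an unadjusted p under 0.05 there were 5 members higher and 0 lower, beside 12.6% and 11.3% of all genes, and DESeq2 called 1, Rpsa, higher and 0 lower. In 0 members did all hCG libraries lie on one side of all Ctrl libraries, beside 2.38% of all genes with hCG above Ctrl and 2.13% with hCG below. Medians were -0.01 for the large and -0.00 for the small subunit, against 0.00 for all genes. The summed levels were 7879 ± 586 CPM in hCG and 7916 ± 236 CPM in Ctrl for the large subunit, and 4786 ± 438 CPM in hCG and 4720 ± 239 CPM in Ctrl for the small subunit (SD, n = 6 each). Rps2, named after its values were seen, had the highest coefficient of variation, 47.3% in hCG and 53.5% in Ctrl. It ran from 118 to 587 CPM in hCG and 112 to 515 CPM in Ctrl, and its part in the spread of the small-subunit sum was not tested.

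Rpsa had the smallest p. It had 450.4, 568.1, 507, 525, 445 and 502 CPM in hCG dDG libraries, against 443, 411, 446, 438, 487 and 443 CPM in Ctrl libraries. All 6 hCG libraries lay above the Ctrl median, the groups overlapped, and the log2 fold change was 0.18 ± 0.06 (edgeR, adjusted p = 0.0797). Rpl10, a late-joining large-subunit protein, Rpl14 and Rplp0 followed with 0.14 ± 0.05, 0.27 ± 0.11 and 0.12 ± 0.05 (edgeR, adjusted p = 0.1202, 0.142 and 0.145).

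Rpl14 in dDG was high where its processed copy Rpl14-ps1 was low. It had 178, 216, 205, 218, 158 and 184 CPM in hCG libraries, against 140, 149, 155, 154, 218 and 154 CPM in Ctrl libraries. Rpl14-ps1 had 7.32, 1.98, 1.15, 1.27, 5.78 and 1.04 CPM in the same hCG libraries, against 16.1, 18.9, 14.5, 14.8, 1.67 and 15.1 CPM in the Ctrl libraries. Ctrl replicate 5 held the highest Rpl14 and the lowest Rpl14-ps1 of its group, and the hCG libraries with the least Rpl14 held the most Rpl14-ps1. The log2 fold change of Rpl14-ps1 was -2.10 ± 0.63 (edgeR, adjusted p = 0.0697), and its part in the Rpl14 values was not tested. In blastocysts Rpl14-ps1 fell (-0.60 ± 0.21, limma adjusted p = 0.0443), beside -0.04 ± 0.07 for Rpl14. Rps6-ps4 fell there too (-0.35 ± 0.12, limma adjusted p = 0.0389), beside 0.06 ± 0.08 for Rps6. The other copies tested there did not pass, with Rps18-ps4 at 0.21 ± 0.08 (limma adjusted p = 0.0625). In dDG without Ctrl replicate 5, Rpl14 and Rpsa were called higher.

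The most abundant dDG members by reads, Rpl4 and Rpl3, had log2 fold changes of -0.03 and -0.08, and the least abundant, Rps27 and Rps28, -0.36 and 0.26, none past the threshold. Rplp1, Rplp2, Rpl5, Rpl11 and Rps6 lay between -0.06 (Rpl11) and 0.04 (Rpl5), and the X-linked Rpl36a, Rpl39 and Rps4x between -0.00 and 0.03. Choroid plexus markers reached 12840 CPM in 1 hCG library (replicate 6), against 66.7 to 196 CPM in Ctrl libraries, and microglia markers summed to 141 to 186 CPM in hCG and 122 to 151 CPM in Ctrl, with 3 of 4 called higher. Dentate granule neuron markers summed to 944 to 1178 CPM in hCG and 635 to 1036 CPM in Ctrl, with 1 of 5 called higher and a median log2 fold change of 0.31, and oligodendrocyte markers to 1001 to 2365 CPM in hCG and 1067 to 2647 CPM in Ctrl, with 0 of 4 called by edgeR. Without hCG replicate 6 the count of members called was again 0. Over all genes 4.67% were called higher and 3.19% lower, and the part of these cell types in the member values was not tested.

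The 4 members called in oocytes were set beside their values elsewhere. In blastocysts Rps26, Rps29, Rps25 and Rpl32 had log2 fold changes of -0.09, -0.01, -0.05 and -0.14, and in dDG 0.03, -0.02, -0.04 and -0.03, none past the threshold. Conversely, Rps20, Rps13 and Rpl7a had -0.52, -0.76 and -1.52 in oocytes and -0.03, -0.08 and 0.07 in dDG. With edgeR in oocytes and dDG and limma in blastocysts, no member was called in more than 1 material, while DESeq2 also called Rpl7a lower in oocytes, against its call as higher in blastocysts. Differences between materials were not tested.

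Ribosomal proteins outside the naming rule included 3 paralogs, Rpl7l1, Rpl22l1 and Rpl10l, that changed more, on the log2 scale, than any member called in the same material. Rpl7l1, a paralog of the large-subunit gene Rpl7, fell in oocytes: it had 2.97, 3.97, 4.34, 1.68, 4.68 and 4.05 CPM in hCG libraries, against 15.8, 10.9, 8.67, 12.8, 12.1 and 6.93 CPM in Ctrl libraries. The groups did not overlap (-1.62 ± 0.31, edgeR adjusted p = 0.00402), and it was the only one of 7 tested genes of this list to pass. Rps27l, a p53-induced paralog of Rps27, had 722 ± 89.4 CPM in hCG and 680 ± 92.5 CPM in Ctrl oocytes, beside an average of 1.72 CPM for Rps27 (reads not divided by length). It did not pass (0.07 ± 0.14).

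Rpl22l1, the paralog of Rpl22, fell in blastocysts, with 37.3, 68.6 and 161 CPM (lowest, median, highest) in hCG libraries, against 27.5, 142 and 812 CPM in Ctrl libraries. In 27 of 28 hCG libraries it lay below the Ctrl median (-1.02 ± 0.21, limma adjusted p = 0.00126; 0.0508 with genes detected as a covariate). Rpl22 itself had 200 ± 31.1 CPM in hCG and 226 ± 61.2 CPM in Ctrl (-0.18 ± 0.10) and did not pass. Rpl10l, a paralog of the X-linked Rpl10 known from the testis, and Rps4l, a paralog of Rps4x, rose in blastocysts by 0.50 ± 0.16 and 0.27 ± 0.09 (limma adjusted p = 0.0238 and 0.0313). Both were lost without the 5 hCG libraries with Xist and Y-linked transcripts (0.0637 and 0.0604), and Rps4l with genes detected as a covariate (0.163). Together 2 of 12 tested genes of this list rose and 1 fell there, beside 8.68% higher and 7.6% lower over all genes. The median of this list was -0.30 in oocytes, -0.04 in blastocysts and -0.01 in dDG. In dDG 0 of 10 passed with edgeR or DESeq2, and 1 was higher and 1 lower at an unadjusted p under 0.05. Fau, which encodes a ribosomal protein fused to a ubiquitin-like protein, was tested in all 3 tables and did not pass.

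Other messenger RNAs known to carry a TOP motif, elongation factors among them, were called in both directions in blastocysts. In oocytes 0 of 22 passed with edgeR or DESeq2, and 1 was higher and 2 lower at an unadjusted p under 0.05, with Npm1 at 1329 CPM in hCG and 1474 CPM in Ctrl. In blastocysts 4 of 24 fell and 2 rose, with a median of -0.05, beside 7.6% lower and 8.68% higher over all genes. The elongation factor Eef1a1 fell by 0.36 ± 0.07 on the log2 scale, with 2949 ± 429 CPM in hCG and 3724 ± 821 CPM in Ctrl (SD, n = 28 each; limma adjusted p = 0.000580). On unscaled values its sign, like those of Btf3, Nap1l1 and Pabpc1, was positive but below the median of all genes. Btf3, a subunit of the nascent chain complex, and Nap1l1, a histone chaperone, fell by 0.28 and 0.25, and Pabpc1, the poly(A)-binding protein, by 0.25. The initiation factor subunits Eif3h and Eif3f rose by 0.25 and 0.23. With genes detected as a covariate Btf3 (-0.12, limma adjusted p = 0.351), Nap1l1 (-0.21, 0.0964) and Eif3f (0.15, 0.29) were lost, and without the 5 libraries Pabpc1 and Eif3f (0.0813 and 0.0817). Pabpc1 and Eif3f were also lost without a filter on low values, and Pabpc1 without TMM factors. EdgeR on estimated reads called 1 of the 24 higher and 4 lower, with Eif3f lost (edgeR adjusted p = 0.0747). In dDG 1 of 23 rose, Tpt1 (0.21 ± 0.05, edgeR adjusted p = 0.0238), beside 4.67% higher over all genes.

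Ribosome biogenesis factors, which process ribosomal RNA and assemble subunits, were called 0 times of 40 in oocytes with edgeR, with 3 higher and 4 lower at an unadjusted p under 0.05 and 1 called lower by DESeq2. In blastocysts 5 of 49 rose and 1 fell, with a median of 0.05, beside 8.68% higher and 7.6% lower over all genes. Wdr74, Nob1, Eif6 and Bop1 rose by 0.57, 0.57, 0.57 and 0.49 and Utp4 by 0.32, while the remodelling ATPase Mdn1 fell by 0.32 ± 0.11 (0.11, positive, on unscaled values). With genes detected as a covariate all of these but Wdr74 were lost: Nob1 was at 0.33 (limma adjusted p = 0.135), Utp4 at 0.16 (0.354), and Eif6, Bop1 and Mdn1 had adjusted p-values of 0.059, 0.0977 and 0.196. Without the 5 libraries Eif6, Bop1, Utp4 and Mdn1 were lost (0.0506, 0.0568, 0.0617 and 0.0522). Mdn1 was also lost without TMM factors and without a filter on low values. EdgeR on estimated reads called 4 of the 49 higher and 2 lower, with Bop1 lost (edgeR adjusted p = 0.0873). In dDG 3 of 48 rose (Emg1 by 0.32, Dimt1 by 0.34 and Nle1 by 0.43) and Nop58 fell by 0.30 ± 0.07 (edgeR, adjusted p = 0.0147). Over all genes tested in dDG 4.67% were called higher and 3.19% lower.

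RNA polymerase I and 5S transcription genes passed 0 times of 16 in oocytes with edgeR or DESeq2, with 0 at an unadjusted p under 0.05. In dDG 0 of 20 passed with edgeR, with 2 higher and 2 lower at an unadjusted p under 0.05, while DESeq2 called 1 higher and 2 lower. In blastocysts Taf1a rose by 0.63 ± 0.20 and Ubtf, the architectural factor of ribosomal DNA, fell by 0.46 ± 0.16, 2 of 20. Over all genes 8.68% were called higher and 7.6% lower in blastocysts. EdgeR on estimated reads called 0 higher and 1 lower there, and lost Taf1a, as did a pseudocount of 0.1 CPM. Ubtf was lost without TMM factors and without a filter on low values. With genes detected as a covariate both were lost, with Taf1a at 0.22 (limma adjusted p = 0.525) and Ubtf at -0.48 (0.0795). Of mTORC1 and TOP regulators 0 of 14 passed in oocytes with edgeR or DESeq2, and 1 was higher at an unadjusted p under 0.05. In blastocysts Eif4ebp1, the translation repressor that mTORC1 switches off, rose by 0.39 ± 0.09 and Maf1, a repressor of RNA polymerase III, by 0.61 ± 0.17, while Mycn fell by 0.63 ± 0.21 and Larp4b by 0.23 ± 0.08 (0.20, positive, on unscaled values), out of 21 tested. These calls stand beside the same 8.68% higher and 7.6% lower over all genes. With genes detected as a covariate Maf1 (0.20, limma adjusted p = 0.44), Mycn (0.0752) and Larp4b (0.134) were lost, and Larp4b also without the 5 libraries (0.103). Mycn and Larp4b were also lost without a filter on low values, and Larp4b without TMM factors. In dDG Akt1s1 and Mycl rose by 0.26 and 0.27, and Larp1, the TOP-binding repressor, fell by 0.17 ± 0.04, with 133 ± 2.83 CPM in hCG and 151 ± 6.78 CPM in Ctrl (SD, n = 6 each; edgeR adjusted p = 0.0264). Larp4 fell by 0.30, 1 of 2 that fell among 22 tested, beside 4.67% higher and 3.19% lower over all genes. Medians of the lists of TOP messages, biogenesis factors, polymerase I and 5S genes, and mTORC1 regulators lay between -0.08 and 0.08 in every table.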

How the data were processed

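Per the labels, oocyte and blastocyst libraries were made with Smart-seq2, which primes at the poly(A) tail, and dDG libraries from mRNA. The authors deposited whole-number counts per symbol for oocytes and expected counts per RefSeq transcript for dDG, summed here per symbol and rounded. The deposited blastocyst values are a signal: estimated counts times a factor per library, whose basis is not given in the sources used here. In each library 88.9% to 93.4% of values lay within 0.005 of a whole multiple of one step, 39.29 to 244.49 between libraries, so scaling to CPM removes the factor, and dividing by the step gave the estimated reads. Per the submitters' processing notes, the tools were HTSeq 0.12.4, SAMtools 1.19.1, STAR 2.7.6a, Bowtie2, TopHat, Trimmomatic 0.32 and Trim Galore 0.6.4, and the builds mm10 and GRCm38; which made which table, and how multi-mapping reads were counted, is not given in the sources used here. Names turned into dates, 23 in the oocyte and 25 in the dDG table, held 0.169% and 0.324% of values. They were not traced back to genes, and stayed in the library totals and in the counts given to the fits.

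The count tables went through the quasi-likelihood F test of edgeR 4.0.16 (robust, with TMM factors) in R 4.3.3 after the default filter (10 counts, 15 in total), and blastocysts with limma 3.58.1 (trend, robust) on log2 of TMM-normalised CPM plus 1. Printed CPM values are scaled to the library total. Tests were two-sided, with Benjamini-Hochberg adjustment over all genes of a table and a threshold of 0.05. All 80 columns were matched to samples by their names. Alternatives were DESeq2 1.42.0, other scalings, filters and pseudocounts, a replicate block, covariates and left-out libraries. The fits were also run on simulated data, with changes larger than those of the members called in blastocysts. The outcome is not given here, and such a run does not bear on calls of that size. The members, gene lists and markers were chosen with earlier results of these data known. Named members were those called, the 4 of smallest p where fewer were called, the 3 with the most and the 2 with the fewest reads, and a list of roles; of each gene list, up to 4 called genes of smallest p, while further called genes of a list were named after their values were seen. A planned list of short proteins was not made, since no protein table was used here. Some genes that this rule names are left out of the text.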

Additional observations from a re-analysis of the deposited data

Results flagged for a closer look

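Among 92 groups of 6 libraries (20 named members, the summed level of each subunit and their ratio, in hCG and Ctrl oocytes and dDG), 6 held a library far from the other 5; chance alone flags about 1 in 20. In oocytes, Rps6 was at 0.240 CPM in hCG replicate 4, with the next library at 3.10 CPM. Ctrl oocyte replicate 3, the deepest library, was far above the others in Rplp1 (34.8 CPM, next 18.1), Rplp2 (385.5 CPM, next 284.3) and Rps26 (42.2 CPM, next 30.1). In Ctrl dDG, Rpl14 stood out in replicate 5 (217.6 CPM, next 155.0) and Rpl7a in replicate 2 (291.7 CPM, next 272.9).

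Rpl14 was the 1 member of 76 whose hCG libraries all lay below the Ctrl median in one material and all above it in another. It averaged 24.9 CPM in hCG and 39.0 CPM in Ctrl oocytes, and 193 CPM in hCG and 162 CPM in Ctrl dDG, where the log2 fold change of Rpl14-ps1 was -2.10. This difference between materials was not tested.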

How the results depend on the processing

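In oocytes, 14 of 17 alternatives gave a count of members called lower within 1.5 times of 4, and all gave 0 higher; DESeq2 gave 9 and leaving out 1 library 4 to 9, with the most without Ctrl replicate 4. The replicate block gave 6. Subunit medians stayed between -0.58 and -0.28 in every oocyte alternative.

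In blastocysts the count of members called higher (1) was 0 with the replicate block, with edgeR on estimated reads and with a pseudocount of 5 CPM, 3 without TMM, 2 with genes detected as a covariate and 62 on the deposited values unscaled. The count called lower (2) was 1 with the block and 1 without a filter, and 0 on unscaled values, with the covariate and without the 5 libraries holding Xist and Y-linked transcripts. Unscaled values keep the factor per library, whose basis is not given. With them the median of all genes moved to 0.49, and that of large-subunit and small-subunit members to 0.40 and 0.39. On that scale the signs of Rps13 (0.20), Rps20 (0.15), Btf3 (0.15), Eef1a1 (0.079), Larp4b (0.20), Mdn1 (0.11), Nap1l1 (0.19) and Pabpc1 (0.19) were positive. Of the genes of the lists in blastocysts, Eif3h, Eif4ebp1 and Wdr74 kept their call in all 9 alternatives.

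In dDG, members called higher (0) were 1 with DESeq2 and 0 to 2 on leaving out 1 library, with 2 without Ctrl replicate 5. The call of Larp1 was lost in 6 of 16 alternatives, of Larp4 and Nle1 in 8 each, of Dimt1 in 5 and of Tpt1 in 4.

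Replicate numbers did not pair the samples: correlations of same-numbered libraries ran from -0.19 to 0.21 in oocytes, -0.21 to 0.17 in blastocysts and -0.16 to 0.14 in dDG, and 1, 0 and 0 libraries correlated best with their own number. The block lost the blastocyst calls of Rpl7a and Rps13 (limma adjusted p = 0.105 and 0.0745) and, among the genes of the lists, that of Larp4b. With it 0 members were called higher and 0 lower in dDG. The 16 oocyte members averaging at most 1.91 CPM had too few counts to be tested.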
